A study of Mus musculus with 6 samples.

Results

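Cfd, Fabp4, Car3, Cyp2e1 and Hp are 5 of the 196 genes that the deposited testis RNA-seq table lists, and they are described here together because fat cells express all of them. They were picked by gene name, but with their TPM values in these libraries in view. The members were thus chosen by the same con and n values that are given here as a description. No test of these values is read as evidence on the members. Every one of the 5 genes was found in the table and each had a value in all 6 libraries. TPM scales the reads of a gene for its length and for the total of the library, so levels of different genes in a library can be set side by side.

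White fat cells store triglyceride and release fatty acids, and they secrete proteins into the blood. Cfd encodes adipsin, or complement factor D, the serine protease that cleaves factor B in the alternative complement pathway and is secreted by fat cells. Fabp4 encodes the fatty acid binding protein that carries fatty acids inside fat cells and is a target gene of the nuclear receptor PPARγ, while Car3 encodes a cytosolic carbonic anhydrase that is abundant in fat and in skeletal muscle. Cyp2e1 encodes a cytochrome P450 that oxidises ethanol and other small molecules and is most abundant in liver, and Hp encodes haptoglobin, an acute phase protein that binds free haemoglobin and is made in liver and fat. The labelled tissue of every library was testis.

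Poly(A) RNA of whole testis was sequenced from C57BL/6 male mice, which arrived at 6 weeks of age and were kept for 10 days before the exposure began. Control mice were given normal saline and the high-dose mice were given antimony trioxide nanoparticles (Nano-Sb2O3, 50 nm) at 7.5 mg/kg/day, in both cases by intranasal instillation for 16 days, with 5 mice in each group of the study and 3 libraries sequenced from each. The labels contradict each other on which libraries are which: con_1, con_2 and con_3 carry the titles of high-dose mice, and n1_4, n3_3 and n3_6 carry the titles of control mice. In the deposited table the mean column CON equals the mean of the 3 con libraries, and the mean column T that of the 3 n libraries, in all 196 genes. The study compared treated with control mice and its comparison is deposited as T over CON, which reads n as the treated group, whereas the titles read con as the treated group. The groups are therefore called con and n here, since the labels alone do not settle which of them was exposed.

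The listed genes are a selection: in the comparison deposited with them, all 196 had a p-value before adjustment below 0.05 and a log2 ratio of 1 or more in size, so genes without such a difference were not analysed here. Their values summed to 1776, 1347 and 1363 TPM in con_1, con_2 and con_3 and to 1107, 880 and 1253 TPM in n1_4, n3_3 and n3_6. TPM keeps no read counts, so the depth behind each value is unknown, and no counting interval or detection limit can be given. Titles give each library as a mouse with a replicate number, so the spread printed here is that between these libraries.

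In the annotation of GRCm39 all 5 are protein-coding genes. Cfd (ENSMUSG00000061780) lies at chr10:79726668-79728496 on the plus strand, and its first GENCODE transcript has 5 exons and 943 bases. Fabp4 (ENSMUSG00000062515) lies at chr3:10268785-10273737 on the minus strand, with 4 exons and 1360 bases in the corresponding transcript. Car3 (ENSMUSG00000027559) is on the same chromosome at chr3:14928489-14937595 on the plus strand, with 7 exons and 1800 bases. Cyp2e1 (ENSMUSG00000025479) lies at chr7:140343652-140355167 on the plus strand, with 9 exons and 2106 bases. Hp (ENSMUSG00000031722) lies at chr8:110301759-110305804 on the minus strand, with 5 exons and 1346 bases. No stretch of 150 bases, the read length, within an exon of the 5 genes occurs a second time in GRCm39. At 50 bases this also held for Cfd, Car3 and Hp, while 1.06% of the windows of Fabp4 and 4.97% of those of Cyp2e1 recurred. These windows cover the merged exons of all annotated transcripts of a gene, not only of the transcript given above. For Fabp4 there were 4904 windows of 50 bases, more than the 1360 bases of that transcript.

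The 250 bases before the RefSeq transcription start are shown for Cfd and Cyp2e1, the 2 of the 5 genes with an entry in the RefSeq promoter table of GRCm38.p6. They are shown because they come from the 2 different orders of the libraries described further on, Cfd from that of Fabp4 and Car3 and Cyp2e1 from that of Hp. The Cfd window is chr10:79890603-79890852 and the Cyp2e1 window is chr7:140763569-140763818, both in GRCm38.p6, on the plus strand and written 5′ to 3′. Capitals mark a TATA box, with the letters TATAAA, and CCAAT boxes, which lie on the other strand and so read ATTGG here.
Cfd: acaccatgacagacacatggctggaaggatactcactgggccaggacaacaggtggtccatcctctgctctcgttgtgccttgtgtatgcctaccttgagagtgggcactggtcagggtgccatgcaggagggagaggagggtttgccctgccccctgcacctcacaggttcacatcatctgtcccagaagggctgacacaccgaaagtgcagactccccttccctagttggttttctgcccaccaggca
Cyp2e1: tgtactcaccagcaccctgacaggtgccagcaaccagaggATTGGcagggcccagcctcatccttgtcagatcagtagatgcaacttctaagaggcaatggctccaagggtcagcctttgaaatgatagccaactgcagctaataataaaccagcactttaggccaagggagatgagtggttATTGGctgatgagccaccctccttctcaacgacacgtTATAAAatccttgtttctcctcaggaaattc

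In GRCm39 each window has a single exact match, from 79726437 to 79726686 on chromosome 10 for Cfd and from 140343482 to 140343731 on chromosome 7 for Cyp2e1, and the gene start of the GRCm39 annotation lies inside the window in both cases. In the Cyp2e1 window, the TATA box lies 31 bases before the RefSeq start and the CCAAT box occurs on the reverse strand 210 and 68 bases before it, whereas the Cfd window holds neither. By the GRCm39 annotation, the Cyp2e1 gene starts upstream of the TATA box and of the nearer CCAAT box, so both lie inside the annotated gene. The G and C content was 57.6% for Cfd and 48.8% for Cyp2e1. Among 32851 windows of the same length in that table, 7.59% hold the TATA box letters on the strand shown and 33.8% hold the CCAAT box on either strand. On both strands, TTNNGNAA (a C/EBP motif) is held by 36.8% of the windows, AGGTCA (a nuclear receptor motif) by 14.0% and the PPAR DR1 motif (that motif repeated with 1 base of any kind between the copies) by 0.0335%. None of these 3 motifs occurs in the 2 windows shown, which says only that those letters are not in them. Fabp4, Car3 and Hp are given by their positions alone.

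Each of the 5 genes had a lower mean in the n libraries than in the con libraries, by a factor between 2.51 for Hp and 5.61 for Car3. The con library with the highest value was con_1 and the n library with the lowest value was n1_4 for all 5. Levels were low, and the highest value of any member in any library was 9.43 TPM, that of Cfd in con_1.

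Cfd, the secreted protease, was measured at 9.43, 2.20 and 3.73 TPM in con_1, con_2 and con_3 and at 0.09, 1.80 and 1.09 TPM in n1_4, n3_3 and n3_6. All con values lay above all n values, but con_2 exceeded n3_3 by a factor of only 1.22, so the separation of the groups was narrow beside the distance of con_1 and n1_4 from the rest. The group means were 5.12 ± 3.81 TPM in con and 0.993 ± 0.859 TPM in n (SD, n = 3 each), a ratio of 5.15. On the log2(TPM + 1) scale, where the added 1 shrinks the differences of weakly expressed genes, n minus con was -1.54 with a standard error of 0.56. This and the standard errors below come from a limma model fitted over all 196 genes, which draws the variance of each gene toward a shared value. By its con mean Cfd ranked 30 among the 196 genes, the highest of the 5.

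Fabp4, the lipid carrier, was measured at 3.60, 1.88 and 2.69 TPM in con_1, con_2 and con_3 and at 0.31, 1.43 and 0.62 TPM in n1_4, n3_3 and n3_6. These groups did not overlap either, and here the con libraries were nearest to each other of all members, with a spread of 1.91-fold against 4.29-fold for Cfd. The mean was 2.72 ± 0.860 TPM in con and 0.787 ± 0.578 TPM in n (SD, n = 3 each), a ratio of 3.46 and a difference of -1.08 on the log2(TPM + 1) scale with a standard error of 0.30. Fabp4 ranked 47 by its con mean, below Cfd.

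Car3, the carbonic anhydrase, was measured at 2.50, 0.70 and 1.57 TPM in con_1, con_2 and con_3 and at 0.59 and 0.26 TPM in n3_3 and n3_6. In n1_4 it was listed at 0, the only such entry among the 30 values of the 5 genes. Its groups did not overlap, and con_2 lay 1.19-fold above n3_3. The mean was 1.59 ± 0.900 TPM in con and 0.283 ± 0.296 TPM in n (SD, n = 3 each), a ratio of 5.61, and the difference on the log2(TPM + 1) scale was -0.98 with a standard error of 0.33. It ranked 71 by its con mean.

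Cyp2e1, the cytochrome P450, was measured at 1.59, 0.61 and 0.48 TPM in con_1, con_2 and con_3 and at 0.04, 0.40 and 0.44 TPM in n1_4, n3_3 and n3_6. Here con_2, con_3, n3_3 and n3_6 lay close together, with con_3 only 1.09-fold above n3_6, and con_1 and n1_4 stood apart on either side. The mean was 0.893 ± 0.607 TPM in con and 0.293 ± 0.220 TPM in n (SD, n = 3 each), a ratio of 3.05, and the difference on the log2(TPM + 1) scale was -0.52 with a standard error of 0.27. Its rank of 105 by con mean was the lowest of the members.

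Hp, the haemoglobin-binding protein, was measured at 2.23, 0.93 and 0.68 TPM in con_1, con_2 and con_3 and at 0.21, 0.58 and 0.74 TPM in n1_4, n3_3 and n3_6. It was the single member whose groups overlapped, because n3_6 lay above con_3. The mean was 1.28 ± 0.832 TPM in con and 0.510 ± 0.272 TPM in n (SD, n = 3 each), a ratio of 2.51, and the difference on the log2(TPM + 1) scale was -0.55 with a standard error of 0.30. Hp ranked 87 by con mean, between Car3 and Cyp2e1. In bulk tissue, fewer cells of a type and less RNA in each cell cannot be told apart, and this applies to all 5 genes.

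**Figure D1:**
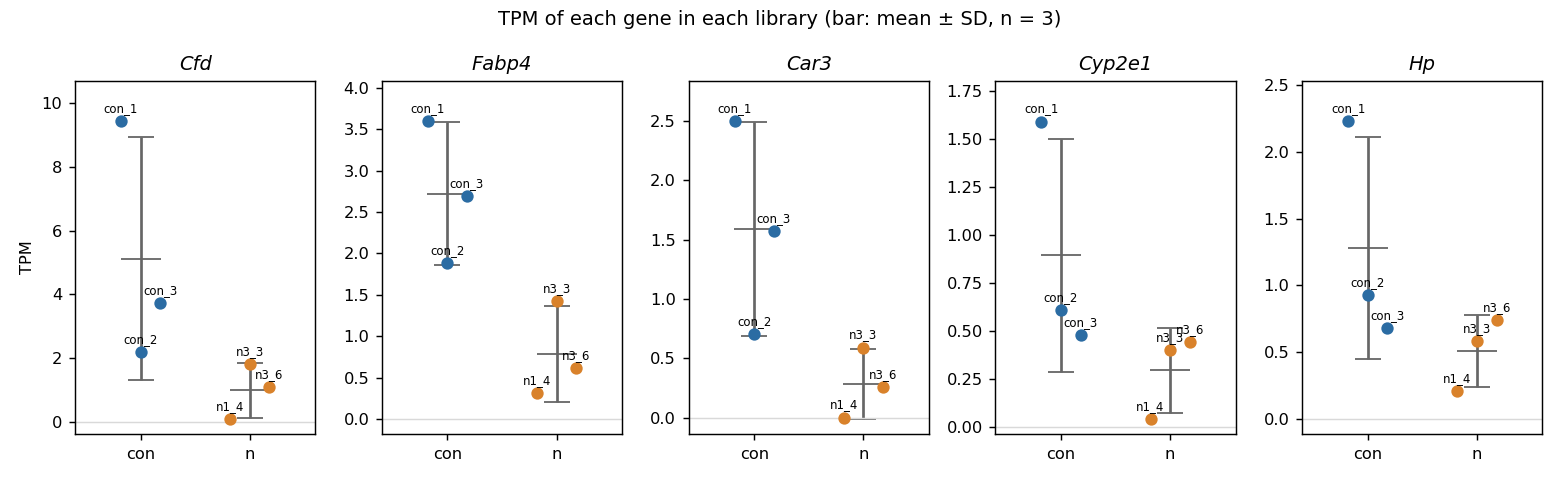
TPM (vertical axis, a separate linear scale for each gene with a grey line at 0) of Cfd, Fabp4, Car3, Cyp2e1 and Hp in the 3 con and the 3 n libraries, with each point named by its library and grey bars for the mean ± SD (n = 3). In every panel con_1 is the highest point and n1_4 the lowest, and in the Hp panel n3_6 at 0.74 TPM lies above con_3 at 0.68 TPM.

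In the order of the con means, Cfd stood first, followed by Fabp4, Car3, Hp and Cyp2e1. Fabp4 at 2.72 ± 0.860 TPM and Car3 at 1.59 ± 0.900 TPM (SD, n = 3 each) differed by more than either SD, whereas each other pair of neighbours in this order differed by less than the larger of their SDs. In the n libraries the order of the means was Cfd, Fabp4, Hp, Cyp2e1 and Car3, and each pair of neighbours differed by less than the larger of their SDs. These SDs are between libraries and leave out that the genes were measured in the same libraries. Within libraries, Hp lay above Cyp2e1 in all 6, and Cfd lay above Fabp4 in all 3 con libraries but not in n1_4. Car3 to Hp was 1.12, 0.753 and 2.31 in con_1, con_2 and con_3.

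For comparison with the whole table, a model fitted with limma on log2(TPM + 1) over the 196 genes, with limits of 0.05 on the Benjamini-Hochberg adjusted p-value and of 1 on the size of the log2 difference, called 5 genes lower in n, or 2.55%, and 0 of the 5 members were among them. With the p-value left unadjusted and both limits kept, limma called 30 genes lower in n, or 15.3%, and Cfd and Fabp4 were 2 of them. The con and n values did not overlap, with n lower, for 83 of the 196 genes, or 42.3%, and for 4 of the 5 members. The genes were listed, and the members picked, with this contrast known, so nothing is read from these counts about the members. The median difference of the members was -0.98 on the log2(TPM + 1) scale, beside a median of -0.54 over all listed genes, of which 129 were lower and 67 higher in n by their mean.

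The level of the listed genes as a whole differed between the groups, and the size of the member differences depended on how the libraries were scaled. When each library was divided by the median ratio of its values to the geometric mean over the libraries (104 genes above 0 in all 6), the median difference of all listed genes moved from -0.54 to -0.23, and the number not overlapping with n lower went from 83 to 31. All 5 members then overlapped between the groups, and the ratio of the con to the n mean was 3.02 for Cfd, 2.05 for Fabp4, 3.33 for Car3, 1.76 for Cyp2e1 and 1.44 for Hp. When each library was divided instead by its sum over the listed genes, the median of all genes was -0.35, 43 genes did not overlap with n lower, all 5 members overlapped, and their ratios lay between 1.70 for Hp and 3.51 for Car3. The n mean stayed below the con mean for each of the 5 genes under both scalings. Of the 9 pairs of a con and an n library, n was the lower one in 9 for Cfd, Fabp4, Car3 and Cyp2e1 and in 8 for Hp as deposited. After the median-ratio scaling it was the lower one in 8 pairs for Cfd, Fabp4 and Car3 and in 6 for Cyp2e1 and Hp. Both scalings rest on genes chosen for a difference between the groups, so they are no neutral reference. The sum over the listed genes is also weighted toward a few genes of high level, such as Rpl35a-ps2 at 404.32 TPM in con_1 and 0 in each n library.

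The 2 libraries at the ends carried much of the difference. The value in con_1 was 3.18 times the mean of the other con libraries for Cfd, 1.58 times for Fabp4, 2.20 times for Car3, 2.92 times for Cyp2e1 and 2.77 times for Hp. On the other side, the mean of n3_3 and n3_6 was 16.1 times the value in n1_4 for Cfd, 3.31 times for Fabp4, 10.5 times for Cyp2e1 and 3.14 times for Hp, and Car3 was listed at 0 in n1_4. Over the whole table, con_1 was alone the highest library and n1_4 alone the lowest for 17 of the 196 genes, or 8.67%, and for 5 of the 5 members. This pattern was in view when the members were picked and is no evidence on them.

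Without con_1 the ratio of the con to the n mean was 2.98 for Cfd, 2.90 for Fabp4, 4.01 for Car3, 1.86 for Cyp2e1 and 1.58 for Hp. Without n1_4 the ratios were 3.54, 2.66, 3.74, 2.13 and 1.94 in the same order. With both left out, a choice made after their values were seen, the ratio was 2.05 for Cfd, 2.23 for Fabp4, 2.67 for Car3, 1.30 for Cyp2e1 and 1.22 for Hp. Each ratio stayed above 1 in these settings, and those of Cyp2e1 and Hp came nearest to it. Leaving out n3_3, the n library with the highest Cfd, Fabp4 and Car3, had the opposite effect, with ratios of 8.68 for Cfd, 5.86 for Fabp4 and 12.2 for Car3. All these ratios used the values as deposited. After the median-ratio scaling, Cyp2e1 was at 0.465 and 0.322 in con_2 and con_3 and at 0.443 and 0.570 in n3_3 and n3_6. In the same order Hp was at 0.709, 0.457, 0.642 and 0.958. By the mean of these libraries, n was thus higher for Cyp2e1 and Hp and lower for Cfd, Fabp4 and Car3.

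**Figure D2:**
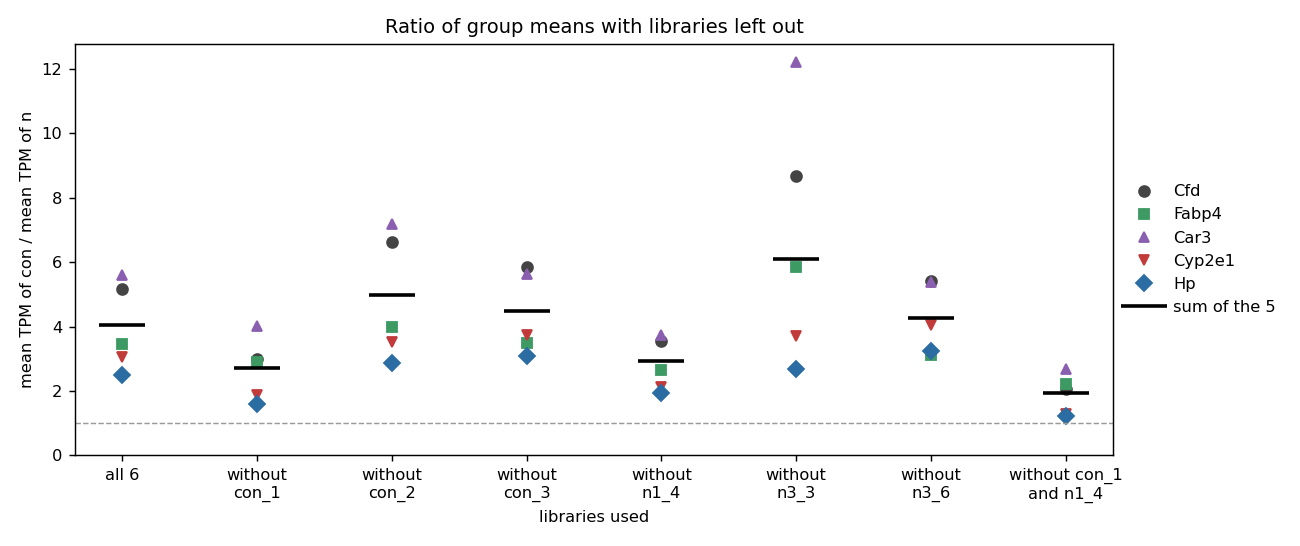
Ratio of the con mean to the n mean in TPM (vertical axis, linear, dashed line at 1) for each gene and for the sum of the 5 genes (black bars), with all 6 libraries, with each library left out in turn, and with con_1 and n1_4 left out together. All points lie above 1, the sum goes from 4.05 with all libraries to 1.95 without con_1 and n1_4, and the highest point is Car3 at 12.2 without n3_3.

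Summed over the 5 genes, the level was 19.4, 6.32 and 9.15 TPM in con_1, con_2 and con_3 and 0.65, 4.80 and 3.15 TPM in n1_4, n3_3 and n3_6. The lowest con library thus exceeded the highest n library by 1.32-fold, while con_1 exceeded n1_4 by 29.8-fold. The group means of the sum were 11.6 ± 6.85 TPM in con and 2.87 ± 2.09 TPM in n (SD, n = 3 each), a ratio of 4.05. In the sum over all listed genes con_1 at 1776 TPM was again the highest, but n3_3 at 880 TPM was the lowest, below n1_4 at 1107 TPM. The place of n1_4 above n3_3 in that sum depends on the predicted gene Gm28900. It had 385.9, 79.88 and 128.28 TPM in n1_4, n3_3 and n3_6 and was listed at 0 in each con library. After the median-ratio scaling the ratio of the member sum was 2.37, and the n3_3 sum of 5.32 then lay above the con_2 sum of 4.82.

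Cfd made up the largest part of the 5-gene sum in each library but n1_4, with 48.7%, 34.8% and 40.8% in con_1, con_2 and con_3 and 37.5% and 34.6% in n3_3 and n3_6. In n1_4 its share was 13.8%, and Fabp4 was the largest there with 47.7%, followed by Hp with 32.3%. Fabp4 took between 18.6% and 29.8% in the other libraries. At the low levels of n1_4 the deposited values have 2 decimals, so a value such as the 0.04 TPM of Cyp2e1 carries a rounding error of up to 0.005 TPM.

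Ratios between genes within a library do not change with the scaling of that library. Cfd to Car3 was the steadiest ratio among those with Car3, at 3.77, 3.14 and 2.38 in con_1, con_2 and con_3 and at 3.05 and 4.19 in n3_3 and n3_6. It spanned 1.76-fold over these 5 libraries, although over the same libraries Cfd alone spanned 8.65-fold and Car3 alone 9.62-fold. Fabp4 to Car3 was 1.44, 2.69 and 1.71 in the con libraries and 2.42 and 2.38 in n3_3 and n3_6, a span of 1.87-fold.

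Cyp2e1 to Hp was 0.713, 0.656 and 0.706 in con_1, con_2 and con_3 and 0.690 and 0.595 in n3_3 and n3_6. Over these 5 libraries this ratio spanned 1.20-fold, the narrowest of the 10 ratios, while Cyp2e1 alone spanned 3.98-fold and Hp alone 3.84-fold. In n1_4 it was 0.190, and rounding of the deposited values allows 0.163 to 0.220, below the values of the other 5 libraries. Rounding is only part of the error. This ratio rests on 0.04 TPM of Cyp2e1 and 0.21 TPM of Hp, and the reads behind these values are unknown. Cfd to Fabp4 likewise was 2.62, 1.17 and 1.39 in the con libraries, 1.26 and 1.76 in n3_3 and n3_6, and 0.290 in n1_4. Its span was 9.02-fold over the 6 libraries and 2.24-fold without n1_4, where Cfd was at 0.09 TPM and the same limit holds.

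The ratios that join Cfd, Fabp4 or Car3 with Cyp2e1 or Hp varied more. Without n1_4, the span was 3.14-fold for Cfd to Cyp2e1, 3.72-fold for Cfd to Hp, 3.98-fold for Fabp4 to Cyp2e1, 4.72-fold for Fabp4 to Hp, 5.54-fold for Car3 to Cyp2e1 and 6.57-fold for Car3 to Hp. In each of these 6 ratios con_3 had the highest and n3_6 the lowest value of those 5 libraries. For all 10 ratios the range of the con libraries overlapped that of the n libraries.

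**Figure D3:**
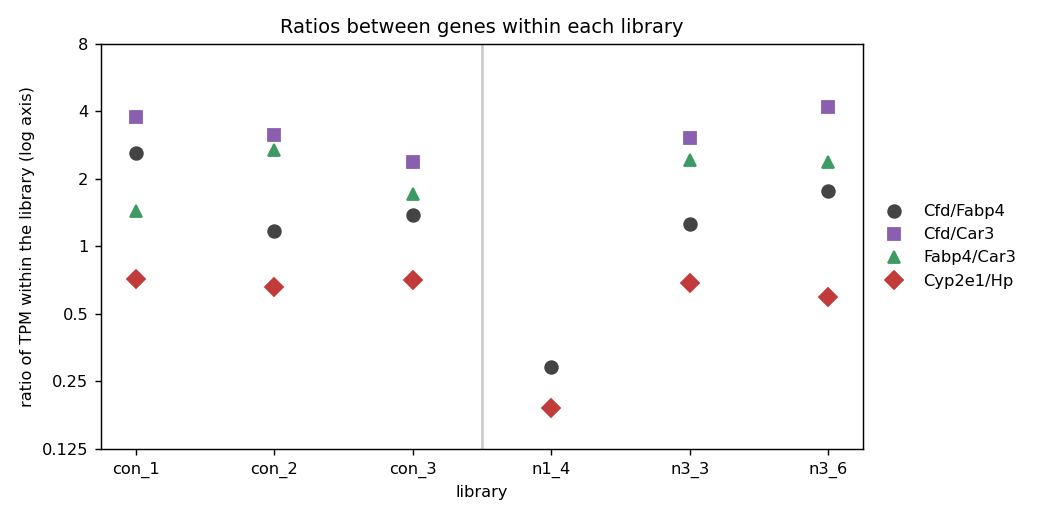
Ratio of TPM between pairs of genes within each library (vertical axis, log scale), for Cfd to Fabp4, Cfd to Car3, Fabp4 to Car3 and Cyp2e1 to Hp, with the con libraries left and the n libraries right of the grey line. The Cyp2e1 to Hp points lie between 0.595 and 0.713 except at 0.190 in n1_4, where Cfd to Fabp4 is also lowest at 0.290 and the ratios to Car3 have no value because Car3 is listed at 0.

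Within each group, where the con and n difference does not enter, the order of the libraries was compared between the genes. Cfd, Fabp4 and Car3 shared 1 order, with con_1 above con_3 above con_2 and n3_3 above n3_6 above n1_4. Cyp2e1 and Hp shared another, with con_1 above con_2 above con_3 and n3_6 above n3_3 above n1_4. Over the 10 pairs of members and the 6 pairs of libraries within a group, 48 of 60 comparisons, or 80%, were ordered alike, 24 of 30 in each group. Over all pairs of listed genes the share was 49.96% (43929 of 87934). With con_1 the highest con library and n1_4 the lowest n library for all 5 members, every comparison with these libraries was alike. That pattern was in view when the members were picked, so the share of 80% is no evidence on them. The 12 comparisons that were not alike all came from the 6 pairs that join Cfd, Fabp4 or Car3 with Cyp2e1 or Hp, each with 4 of 6 alike. Without con_1 and n1_4, a setting chosen after their values were seen, 8 of 20 comparisons, or 40%, were alike. The remaining libraries were ordered 1 way by Cfd, Fabp4 and Car3, with con_3 above con_2 and n3_3 above n3_6, and the opposite way by Cyp2e1 and Hp.

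Across the 6 libraries, with log2(TPM + 1) centred within con and within n, Pearson's r was 0.99 between Cyp2e1 and Hp, 0.96 between Cfd and Car3, 0.93 between Fabp4 and Car3 and 0.92 between Cfd and Fabp4. It was lowest between Fabp4 and Hp, at 0.60, and between Fabp4 and Cyp2e1 and between Car3 and Hp, at 0.69 each. These values are descriptions over 6 libraries that share their depth and scaling and in which con_1 and n1_4 are the extremes, and they carry no test. Against the mean profile of the other 4 members, r was 0.99 for Cfd, 0.83 for Fabp4, 0.90 for Car3, 0.89 for Cyp2e1 and 0.83 for Hp. Among the 192 listed genes outside the 4 used for the profile, these values ranked 2, 13, 4, 3 and 6. The place of con_1 and n1_4 was in view when the members were picked, so these ranks are no evidence on them.

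Other listed genes also had a pattern near that of the members. Against the mean profile of all 5 members, 17 of the 196 genes had r of at least 0.8, of which 5 were the members themselves and 12 were other genes, and the median over all listed genes was -0.03. The most alike other gene with a mean of at least 0.1 TPM in each group was Gm5931, a predicted gene, at r = 1.00. It was measured at 4.31, 0 and 0.31 TPM in con_1, con_2 and con_3 and at 2.46, 10.89 and 7.72 TPM in n1_4, n3_3 and n3_6, so within the groups it followed the members while between the groups it was higher in n. 1700091H14Rik followed at r = 0.88, with 1.02, 0.06 and 0 TPM in the con libraries and 1.25, 1.92 and 2.67 TPM in the n libraries, and was also higher in n.

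Il16, which encodes a chemoattractant cytokine of T cells, had r = 0.86 with 3.00, 0.89 and 1.92 TPM in the con libraries and 0.50, 0.83 and 1.03 TPM in the n libraries. The predicted genes Gm31545 (r = 0.86), Gm11007 (r = 0.86) and Gm35533 (r = 0.85) completed the 6 genes nearest to the members, of which 4 were lower and 2 higher in n by their mean. Of these, Gm11007 was listed at 0 in n1_4, as Car3 was, and had 1.76, 0.53 and 1.49 TPM in the con libraries. None of the 6 nearest genes belongs to the families of the members.

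**Figure D4:**
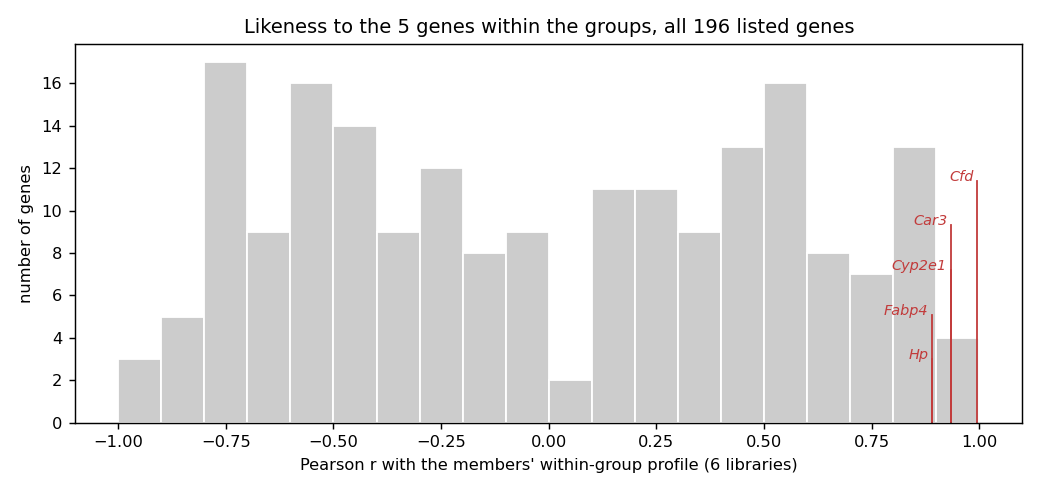
Number of genes (vertical axis) by Pearson's r (horizontal axis, bins of 0.1) between each listed gene and the mean profile of the 5 members over 6 libraries, with log2(TPM + 1) centred within con and n. Red lines mark the members, which are part of the profile; 17 genes lie at 0.8 or above and the median of all 196 genes is -0.03.

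Whether other fat-cell genes ran with the 5 could be asked only where the table lists them. Of 27 white fat markers, among them Adipoq, Plin1, Cidec and Lep, 0 were listed, and of 6 brown fat markers, including Ucp1, 0 were listed. Other tissues in which members are expressed gave the same count, with 0 of 12 liver, 0 of 11 skeletal muscle, 0 of 9 neutrophil and 0 of 11 acute phase genes listed. For the other cells of the testis and its surroundings, 0 of 8 epididymis, 0 of 8 Leydig, 0 of 11 Sertoli, 0 of 4 peritubular myoid and 0 of 16 germ cell markers were listed, nor were the 8 macrophage, 6 endothelial and 5 red cell markers. The labelled tissue could therefore not be checked by its defining markers, and a share of fat, liver or muscle RNA in any library was not tested. The lists leave out the 5 members, so Fabp4, a PPAR target, and Hp, an acute phase gene, are not counted in them. Apart from the members, 1 of 205 genes of 15 lists was in the table, and it was Fabp7 of the 63 PPAR signalling genes.

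Fabp7, the brain-type fatty acid binding protein and a family member of Fabp4, was measured at 0.12, 0 and 2.81 TPM in con_1, con_2 and con_3 and at 0, 0.10 and 0 TPM in n1_4, n3_3 and n3_6. Its level lay almost wholly in con_3, whereas Fabp4 was highest in con_1. Cyp4x1, the other cytochrome P450 gene in the table, was measured at 0.04, 0.04 and 0.11 TPM in the con libraries and was listed at 0 in each n library, and con_3 was again the highest. No other gene of the carbonic anhydrase, complement, fatty acid binding protein or cytochrome P450 families was listed.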

How the data were processed

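The authors deposited values per library for 196 genes of mouse testis RNA, here taken as TPM with 2 decimals, although the methods name FPKM. The submitters' processing notes name fastp, HISAT2, RSEM, DESeq2 and GRCm39, whereas the methods name other trimming and counting tools and another library kit than the labels. The deposited log2 ratio and p-value columns hold the authors' own comparison and were used only to check how the genes had been selected. The deposited columns of group means were used only to check the grouping. The members and gene lists were chosen with earlier results of these data known.

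Log2(TPM + 1) was fitted over all 196 genes for 3 con against 3 n libraries with limma 3.58.1 in R 4.3.3 (Benjamini-Hochberg adjusted p-value under 0.05 and absolute log2 difference of at least 1), and the fit was tested on simulated data. The 5 members were in the limma fit as listed genes. Nothing is read from their p-values, because they were picked with this contrast known. Other named genes were those of the gene lists and member families that the table holds, and the 6 genes with a symbol and a mean of at least 0.1 TPM in each group whose within-group pattern was most like the members. Alternatives were pseudocounts of 0.1 and 0.5, a minimum mean of 1 TPM, 2 scalings, a replicate block and the omission of libraries. Reads behind each value are unknown, so the precision given rests on the spread between libraries. The SDs are those of the libraries of each group. The standard errors are those of the limma fit, which draws the variance of each gene toward a value shared by all 196 genes. They can therefore be smaller or larger than the libraries alone would give for that gene. Gene positions were read from GENCODE vM39 (GRCm39) and promoters from RefSeq (GRCm38.p6). Exon windows were counted with numba 0.67.0, and figures were drawn with matplotlib 3.10.9 in Python 3.11.15.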

Additional observations from a re-analysis of the deposited data

How the results depend on the processing

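Counting each member under each alternative setting once, the difference of n minus con was below 0 in 55 of 55 values, and 46 of them lay within the spread between replicates of the value as reported. The settings rework the same libraries, and the members were picked with their con and n values in view. The shared sign is therefore no evidence on the members. Scaling and the omission of libraries were not combined in these settings. The median difference of the members (-0.98) was -1.83 with a pseudocount of 0.1, -1.38 with a pseudocount of 0.5 and -0.56 without con_1 and n1_4, and it lay between -1.25 and -0.73 with 1 library left out. The ratio of the member sum (4.05) lay between 2.70 and 6.11 with 1 library left out, was 1.95 without con_1 and n1_4 and 3.32 with the geometric mean, and lay between 3.46 and 4.38 without 1 of the genes. The share of comparisons ordered alike (80%) was 90% after division by the table sum, lay between 70% and 85% with 1 library left out and was 40% without con_1 and n1_4. The median span of the 10 ratios between members (2.35 on the log2 scale) was 1.19 with a pseudocount of 1 and lay between 1.62 and 2.35 with 1 library left out. The cause of these shifts was not tested.

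Over all listed genes, limma called 8 (3 higher and 5 lower in n). It called 15 with a pseudocount of 0.1, 22 with a pseudocount of 0.5, 19 after median-ratio scaling (17 higher and 2 lower), 50 by the unadjusted p-value and 5 among the 103 genes with a mean of at least 1 TPM. With 1 library left out the number lay between 3 and 35, with 3 without con_1, 35 without con_2, 25 without n3_3 and 3 without n3_6. With the replicate block it was 3. The deviations of same-numbered libraries correlated at 0.04, -0.03 and 0.10 over the listed genes. Whether the replicate number marks a pairing of the libraries was not tested. The groups did not overlap for 123 genes, and for 80 after median-ratio scaling, 64 with a mean of at least 1 TPM and between 134 and 150 with 1 library left out. The table holds no counts, so the reads behind these values are unknown. It holds only genes selected for their difference, so genes without a difference were not analysed here.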

Other observations

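Of the genes at 1 TPM or more in con_1, 4 of the 196 were at least 4 times as high there as in the next library, a limit chosen after the values were seen. Gm16212 had 16.39 TPM in con_1 and at most 0.40 TPM elsewhere, and Phyhip, which encodes a protein that binds phytanoyl-CoA hydroxylase, had 4.06 TPM in con_1 and between 0.37 and 0.72 TPM elsewhere. Rps2, a gene of the small ribosomal subunit with many processed copies in the mouse genome, had 280.63 TPM in con_1 and between 34.11 and 46.84 TPM in the other 5 libraries, and Etaa1os had 18.29 TPM in con_1 and at most 3.79 TPM elsewhere. By the same limit, con_3 had 3 such genes, n1_4 and n3_6 had 1 each, and con_2 and n3_3 had 0.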
